A study of Homo sapiens with 12 samples.

Results

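The mitochondrial ribosomal protein genes are the nuclear genes whose products are imported into mitochondria and build the ribosome of that organelle. Members were all gene entries whose symbol was MRPL or MRPS followed by a number and at most 1 letter from A to C, and whose description did not name a pseudogene. This gave 78 members of 52889 gene entries. By textbook assignment 51 of them belong to the large subunit and 26 to the small subunit. Of these ribosomal proteins, 48 have a bacterial counterpart and 29 were added in the mitochondrial lineage. The remaining member, MRPS36, carries a ribosomal name but is a component of the oxoglutarate dehydrogenase complex.

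Mitochondrial ribosomes translate the messenger RNAs of the mitochondrial genome, which encode core subunits of the respiratory chain and of ATP synthase. All of their proteins are encoded in the nucleus, so their genes are read by RNA polymerase II, and many of their promoters are short, rich in CpG and without a TATA box. Tetracyclines such as doxycycline bind bacterial ribosomes and also inhibit translation by mitochondrial ribosomes, and doxycycline was the inducer in the experiment.

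The data are ATAC-Seq read counts per gene from HEK293T cells, an established human embryonic kidney line. ATAC-Seq cuts accessible DNA with the Tn5 transposase, so a count reflects how much open DNA was cut within the interval assigned to a gene and not an amount of RNA. The 12 samples formed 4 groups, each with 3 biological replicates. The empty vector pSBTet-GP was present in Mock cells. The d0 cells expressed MLL-AF4 constitutively, and the d3 cells carried constitutive MLL-AF4 plus inducible AF4-MLL and received 1 µg/ml doxycycline for 48 h. The d28 cells have the genotype of d0 in the labels, and by the description of the experiment they are d3 cells grown for a further 25 days after AF4-MLL had been switched off. MLL-AF4 was stably integrated, whereas AF4-MLL was introduced later by transient transfection. By the paper's methods, blasticidin was given for selection over the same 48 h as doxycycline. The effects of doxycycline, blasticidin, the transfection and AF4-MLL cannot be told apart at d3, because all of them came between d0 and d3. Whether Mock cells saw doxycycline is not given in the sources used here.

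Total counts ranged from 353430 to 3539937 per sample, and 26.4% to 68.5% of them fell on mitochondrially encoded genes. This share went with the group, at 26.8% ± 0.321 (SD, n = 3) in Mock, 44% ± 1.83 in d0, 39.4% ± 5.94 in d3 and 65.5% ± 2.61 in d28. The part of this difference between libraries in the comparisons was not tested. After removal of these genes 257857 to 1116385 counts remained, with the shallowest libraries in Mock. Summed over 7 marker genes of the HEK293 line, normalized counts ranged from 107 to 147 over the 12 samples. Over 7 blood cell markers they ranged from 65 to 76.6 in Mock, 67.3 to 80.2 in d0, 78.9 to 87.7 in d3 and 67.2 to 71.6 in d28. The d3 sums thus lay above those of Mock and d28 and overlapped those of d0. No marker was at 0 in all samples. Per kilobase of gene span the median level was 1.54 for the line markers and 0.524 for the blood markers. The chi-square between replicates of a group was 1.06 to 1.38 per degree of freedom, above the 1 that counting noise alone gives.

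All 78 members had at least 1 count in every sample and all passed the minimum for testing. They took 1003 to 3539 counts per sample. Normalized counts were obtained by bringing each sample to the average effective library size, mitochondrially encoded genes excluded. On this scale the median member had a mean of 20.5 over the 12 samples, 40 members reached 20, and 13 stayed below 10. The 3 members with the most counts were MRPL38, MRPL24 and MRPL40, all of the large subunit, with means of 85.6, 76 and 52.6. The 3 with the fewest were MRPL12 at 4.25, MRPL23 at 4.82 and MRPS17 at 5.63. MRPL12 and MRPL23 belong to the large subunit and MRPS17 to the small subunit, and all 3 have bacterial counterparts. For these thin members the counting error alone is wide, since 18 members had 3 counts or fewer in at least 1 sample.

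Levels of different genes were compared per kilobase of annotated span. The median over members was 2.24 normalized counts per kilobase, against 0.503 over 20676 other genes. MRPL41, whose span covers 677 bases, had the highest value at 48. MRPL23, whose span covers 67613 bases, had the lowest at 0.0713. The median span of members was 8642.5 bases. MRPL41 was chosen for naming after its value was seen. Normalized count and span were only weakly related across members, with a Spearman rho of -0.138 over the 78 genes, which share their libraries. A density per span therefore depends on how short a gene is. The part of span length in the higher median of members was not tested. The interval that was counted per gene is not given in the sources used here, so a density per span is a description only.

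**Figure D1:**
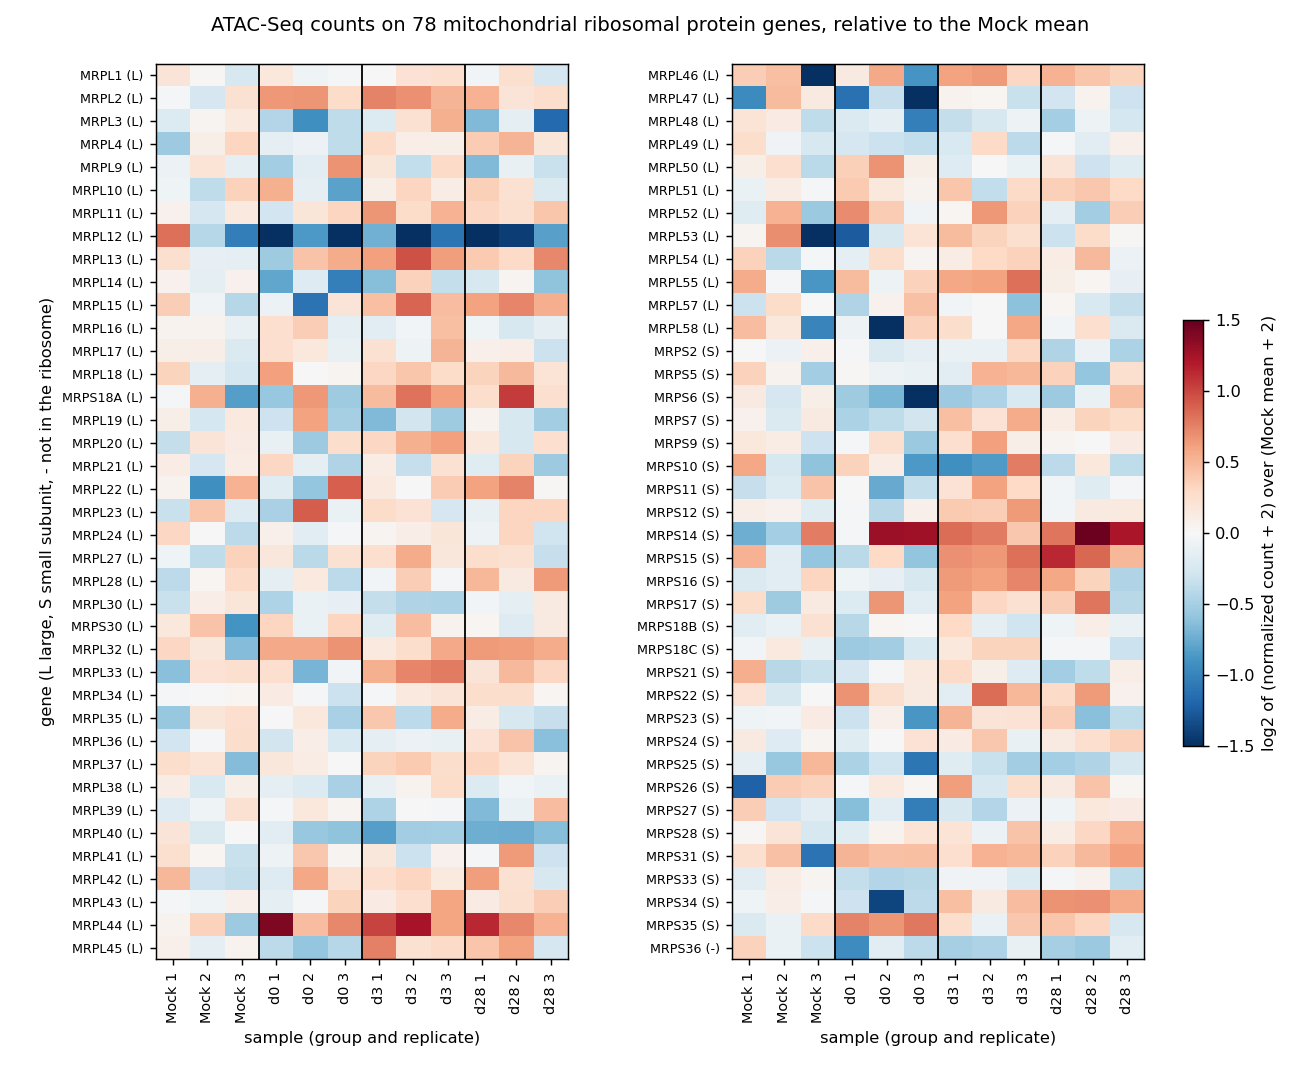
Each row is 1 of the 78 members and each column 1 of the 12 samples, with the colour giving log2 of the normalized count plus 2 over the Mock mean plus 2. Colours are saturated beyond 1.5 in either direction. The d3 columns hold more red than the d0 columns, MRPL40 is blue in d3 and d28, and MRPL12 is dark blue in most samples outside Mock.

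Promoter sequence was available from RefSeq (GRCh38.p14) for 70 of the 78 members, as 250 bases before to 50 bases after the first listed start. Short motifs were searched on both strands. The ETS core CCGGAAG stood in 29 of the 70 windows, which is 41.4% against 10.7% of 27305 promoters of all genes and 14.2% of 15843 promoters of protein-coding genes. The YY1 core AAGATGGCG was found in 13 windows, or 18.6% against 1.85% of all and 2.74% of protein-coding promoters. These 2 cores can overlap by the letters AAG. The NRF1 motif, which reads GCGC, any base and TGCGC and is bound by a factor known from genes for respiration, was in 8 windows, or 11.4% against 6.28% of all and 8.58% of protein-coding promoters. The GC box GGGGCGGGG of SP1 was in 17 windows, or 24.3% against 16% of all promoters, and near the 22.4% of protein-coding ones. The letters TATAAA were in 3 windows, or 4.29% against 12% of all and 9.63% of protein-coding promoters. The cyclic AMP response element TGACGTCA was in 0 of 70, against 1.98% and 2.59%. A match gives only letters and not a bound site.

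Many of these promoters are shared. A start on the opposite strand, pointing away and within 1000 bases, stood next to 27 of the 70 starts, which is 38.6% against 19.8% of all promoters and 21.2% of those of protein-coding genes. In 20 of the 27 cases the partner codes for protein. MRPS11 and MRPL46 are such a pair of 2 members, with starts 320 bases apart. MRPS12 is paired with the mitochondrial seryl-tRNA synthetase gene SARS2 over 181 bases, and MRPL40 with the histone chaperone gene HIRA over 812 bases. For 25 of the 70 members the span of another gene also covered part of the gene, and how reads in shared DNA were assigned is not given in the sources used here.

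The 200 bases before the start are given for 6 of the members on which the comparisons turn, because they show the range from windows with several ETS cores to windows with none. Capitals mark matches to the ETS, NRF1 and SP1 letters on either strand, and each window reads 5′ to 3′ on the strand of the gene.
MRPS34, chr16:1773135-1773334, minus strand: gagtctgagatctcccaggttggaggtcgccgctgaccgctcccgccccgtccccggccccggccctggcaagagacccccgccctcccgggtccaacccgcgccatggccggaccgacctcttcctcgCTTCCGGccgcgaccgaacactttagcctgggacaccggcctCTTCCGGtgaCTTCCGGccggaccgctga
MRPL40, chr22:19432345-19432544, plus strand: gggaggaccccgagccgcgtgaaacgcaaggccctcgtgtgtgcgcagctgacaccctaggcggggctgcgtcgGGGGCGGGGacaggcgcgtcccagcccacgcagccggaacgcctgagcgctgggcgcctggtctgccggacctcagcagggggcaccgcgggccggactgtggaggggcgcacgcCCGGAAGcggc
MRPL45, chr17:38296968-38297167, plus strand: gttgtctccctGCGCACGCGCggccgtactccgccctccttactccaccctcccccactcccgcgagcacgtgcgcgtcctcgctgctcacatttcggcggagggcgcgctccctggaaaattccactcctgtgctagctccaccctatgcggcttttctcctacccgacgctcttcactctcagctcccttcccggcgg
MRPS11, chr15:88467508-88467707, plus strand: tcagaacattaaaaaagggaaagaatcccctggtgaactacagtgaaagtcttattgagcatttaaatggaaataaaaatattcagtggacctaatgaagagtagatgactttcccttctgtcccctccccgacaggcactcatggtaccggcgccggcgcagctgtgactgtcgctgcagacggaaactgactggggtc
MRPS7, chr17:75261679-75261878, plus strand: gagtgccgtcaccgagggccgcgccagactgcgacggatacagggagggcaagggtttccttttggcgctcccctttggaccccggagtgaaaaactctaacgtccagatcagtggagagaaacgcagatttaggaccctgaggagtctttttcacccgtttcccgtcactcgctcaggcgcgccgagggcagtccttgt
MRPS16, chr10:73252645-73252844, minus strand: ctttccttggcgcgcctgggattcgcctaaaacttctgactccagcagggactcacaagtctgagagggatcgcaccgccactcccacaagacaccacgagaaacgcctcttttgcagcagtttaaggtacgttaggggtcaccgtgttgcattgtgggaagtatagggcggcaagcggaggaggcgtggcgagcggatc
MRPS34 held 3 ETS cores, MRPL40 held 1 ETS core and 1 GC box, and MRPL45 held 1 NRF1 motif. The windows of MRPS11, MRPS7 and MRPS16 held no match within these 200 bases. Of the 8 called members with a window, 3 held the ETS core and 3 the GC box somewhere in the full window searched.

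As a group, the members stood higher in d3 than in Mock and d0. As a share of the effective library they took 0.375%, 0.347% and 0.34% in the 3 Mock samples, 0.344%, 0.344% and 0.327% in d0, 0.389%, 0.402% and 0.414% in d3, and 0.374%, 0.392% and 0.354% in d28. All d3 samples lay above all Mock and d0 samples, while d3 and d28 overlapped. As a share of all counts outside mitochondrially encoded genes, the means were 0.391% ± 0.0133 (SD, n = 3) in Mock, 0.352% ± 0.00933 in d0, 0.395% ± 0.0211 in d3 and 0.33% ± 0.0137 in d28. On that scale d3 overlapped Mock, so the gap to Mock in the summed share came with the TMM scaling factors. These factors ran from 1.078 to 1.145 in Mock, 1.035 to 1.046 in d0, 0.961 to 1.003 in d3 and 0.847 to 0.931 in d28. The gap to d0 stood on both scales. Gene by gene, with library sizes alone, the median log2 fold change in d3 vs Mock was 0.09 over members and -0.07 over all tested genes. No test was run on these shares, and in bulk samples more cells with an open gene and more open DNA per cell cannot be told apart.

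The comparisons below come from edgeR's quasi-likelihood test over all 12 samples, with Benjamini-Hochberg adjustment over 27543 tested genes. A member was called at an adjusted p below 0.05. The 6 comparisons share their groups, so their results are not independent of each other.

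The comparison of d3 with d0 asks what followed when AF4-MLL, doxycycline and blasticidin were added to cells with MLL-AF4. Here 4 members rose, MRPL45, MRPS16, MRPS7 and MRPS11, and 0 fell. The 4 make up 5.13% of the 78 members, against 1.01% of all tested genes called higher and 0.225% called lower. At an unadjusted p below 0.05 there were 15 higher members, against 8.53% of all tested genes, and 1 lower member, against 3.54%. In 21 members all 3 d3 samples lay above all 3 d0 samples and in 2 members below, against backgrounds of 12% and 5.81%. The median log2 fold change was 0.23 over members and 0.08 over all tested genes, and 59 members, or 75.6%, had a value above 0, against 56.7%. The median was 0.33 for the small subunit and 0.22 for the large subunit. By origin it was 0.29 over the 48 proteins with a bacterial counterpart and 0.22 over the 29 mitochondrial additions, so neither class stood far from the whole group.

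MRPL45 encodes a mitochondrial addition that sits near the exit of the large subunit's tunnel and anchors the ribosome to the inner membrane. Its normalized counts were 29.5, 25.1 and 29.1 in Mock, 20.7, 18 and 20.3 in d0, 48.4, 32.9 and 34.6 in d3, and 37.9, 43.3 and 23.1 in d28. All d3 samples lay above all Mock and d0 samples, and d0 was below Mock without overlap. The d3 samples were higher than d0 by 0.97 ± 0.24 on the log2 scale (± SE, edgeR adjusted p = 0.0138). The d28 samples were also higher than d0, by 0.90 ± 0.24 (edgeR adjusted p = 0.0308), with one d28 sample close to the Mock level. Its 20 nearest tested neighbours had a median of 0.44 in d3 vs d0 and 0.46 in d28 vs d0, over 1.24 Mb of chromosome 17, and the part of the neighbourhood in the result was not tested. Leaving out 1 library gave adjusted p values of 0.0121 to 0.164 for d3 vs d0, above the threshold without any of the d0 samples or d3 replicate 1, and the DESeq2 test gave 0.205. For d28 vs d0 they ran from 0.011 to 0.174, above the threshold without any d0 sample, d28 replicate 1 or d28 replicate 2. That call also ended with library sizes alone, no filter, the replicate number as a block, the DESeq2 factors (adjusted p = 0.0504) or the DESeq2 test (adjusted p = 0.152).

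MRPS16 encodes a small subunit protein with a bacterial counterpart, and it is known from an inherited combined respiratory chain deficiency. The 3 samples gave 20.7, 21.3 and 30.8 in Mock, 23.1, 22.1 and 20.3 in d0, 38.9, 38.1 and 41.8 in d3, and 37.4, 31.1 and 17.3 in d28. The d3 samples were tightly grouped above every sample of the other groups, and the d28 samples spread from below every d0 sample to nearly the d3 level. The rise from d0 to d3 was 0.86 ± 0.24 (edgeR adjusted p = 0.0341), and the median of its 20 neighbours was 0.30. Its divergent partner DNAJC9-AS1, starting 97 bases away, had means of only 4.09 and 3.46. Adjusted p values with 1 library left out were 0.0332 to 0.164, and the call ended without any of the d0 or d3 samples. With every library it also ended with library sizes alone, with no filter, with the DESeq2 factors (adjusted p = 0.105) and with the DESeq2 test (adjusted p = 0.303).

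MRPS7 encodes a protein of the head of the small subunit that binds ribosomal RNA early in assembly. Normalized counts were 31, 25.1 and 32.5 in Mock, 20.7, 22.1 and 24.1 in d0, 41.2, 34.7 and 44.3 in d3, and 32, 37.6 and 36 in d28. The d0 samples were the lowest and the d3 samples lay above Mock and d0 without overlap. From d0 to d3 the gene rose by 0.85 ± 0.24 (edgeR adjusted p = 0.0344), beside a median of 0.33 over its 20 neighbours. GGA3, which shares the promoter region and overlaps the span, went from 61.7 to 79.5 with a log2 fold change of 0.37 (edgeR adjusted p = 0.298). MIF4GD, whose span also overlaps that of MRPS7, gave 0.42 ± 0.21 (edgeR adjusted p = 0.386). The part of reads in shared DNA was not tested. For MRPS7, with 1 library left out, the adjusted p ran from 0.0315 to 0.184, and it exceeded the threshold without any d0 sample, d3 replicate 1 or d3 replicate 3. It also did so with library sizes alone, no filter, the DESeq2 factors (adjusted p = 0.106) or the DESeq2 test (adjusted p = 0.272).

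MRPS11 encodes a small subunit protein with a bacterial counterpart at the platform of the subunit. It gave 28.1, 31.4 and 49.6 in Mock, 36.4, 20.7 and 27.9 in d0, 42.8, 56.4 and 45.1 in d3, and 35.3, 31.8 and 36 in d28. The d3 samples lay above d0 and d28 but overlapped Mock. The rise over d0 was 0.74 ± 0.21 (edgeR adjusted p = 0.0483), while d28 against d3 gave -0.48 ± 0.18 (edgeR adjusted p = 0.345). Its divergent partner MRPL46, also a member, had means of 13.4 in d3 and 9.12 in d0 and a log2 fold change of 0.57 ± 0.39 (edgeR adjusted p = 0.583). The 20 neighbours had a median of 0.05 but the 685 tested genes of chromosome 15 a median of 0.44, and the part of the chromosome in the result was not tested. Adjusted p values with 1 library left out were 0.0449 to 0.324, above the threshold without d0 replicates 2 or 3, d3 replicates 2 or 3, Mock replicate 2 or d28 replicate 2. The call also ended with library sizes alone, no filter, the replicate number as a block, the DESeq2 factors (adjusted p = 0.14) or the DESeq2 test (adjusted p = 0.34).

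Further members differed between d3 and d0 without a call. MRPS12, the counterpart of the bacterial protein at the decoding centre, had 61.8, 60.7 and 74 in d3 and 46.2, 34.6 and 49.5 in d0. The groups did not overlap, and the log2 fold change was 0.59 ± 0.18 (edgeR adjusted p = 0.0737). MRPL38, the member with the most counts, went from a mean of 74.1 to 95.2 with a value of 0.36 ± 0.15 (edgeR adjusted p = 0.269). The lower side was led by MRPS35, MRPL19 and MRPL50, at -0.59, -0.52 and -0.54, with adjusted p values of 0.413 to 0.455. MRPS35 had 21.9, 20.7 and 22.8 in d0, above every sample of d3, where it had 15.1, 11.3 and 16.9. A signature rule modelled on that of the study, with the unadjusted edgeR p below 0.05 and a log2 fold change beyond 1, was passed by 4 higher and 0 lower members, against backgrounds of 2.28% and 1.65%. With DESeq2 it was passed by 1 member. Among them MRPL15 gave 1.05 ± 0.51 and MRPL47 gave 1.21 ± 0.59, both on means below 10.

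**Figure D2:**
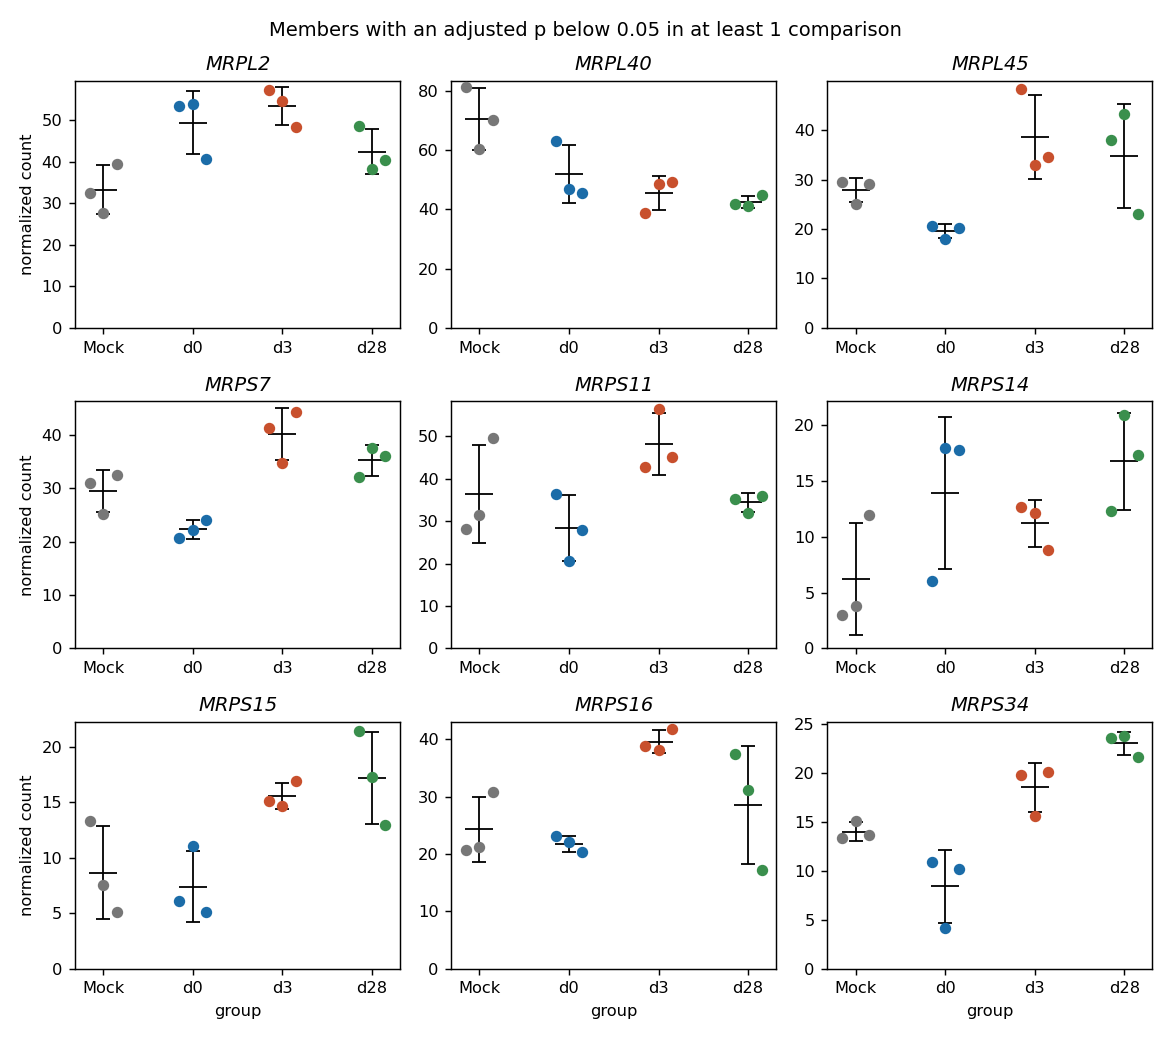
Each panel shows 1 of the 9 members with an adjusted p below 0.05 in at least 1 comparison, with points for the 3 samples of each group on an axis of normalized counts that starts at 0. The horizontal bar is the mean and the whisker the SD of 3 samples. MRPL40 is highest in Mock, and MRPL45, MRPS7, MRPS11 and MRPS16 have higher means in d3 than in d0.

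In d3 vs Mock, MRPL2 rose and MRPL40 fell. One called member in each direction is 1.28%, against 1.28% of all tested genes called higher and 0.312% called lower, so the share of higher calls was that of the background. At an unadjusted p below 0.05 there were 13 higher and 2 lower members, against 8.78% and 3.31%. Past the signature rule were 1 higher and 1 lower member, MRPL44 and MRPL12, against 2.73% and 1.67%. No overlap between the 3 d3 and 3 Mock samples was seen in 17 higher and 3 lower members, against backgrounds of 12.5% and 4.95%. The median was 0.25 over members and 0.11 over all tested genes, and 59 members, or 75.6%, had values above 0, against 58.2% of all genes. The TMM factors shifted the whole distribution upward here, since with the median-of-ratios factors of DESeq2 the median of all genes was -0.03. The member median exceeded that of all genes by 0.14 with TMM and 0.15 with the other factors.

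MRPL40 encodes a mitochondrial addition to the large subunit and lies in the 22q11 region next to HIRA. Its normalized counts were 81.2, 60.3 and 70.1 in Mock, 63.2, 47 and 45.7 in d0, 38.9, 48.6 and 49.1 in d3, and 41.7, 41.2 and 44.7 in d28. All d3 and d28 samples lay below all Mock samples, and d0 overlapped Mock by 1 sample. The gene fell by 0.62 ± 0.18 on the log2 scale in d3 vs Mock (edgeR adjusted p = 0.0394) and by 0.73 ± 0.18 in d28 vs Mock (edgeR adjusted p = 0.00893). The d0 samples gave -0.42 ± 0.19 against Mock (edgeR adjusted p = 0.463). The 20 neighbours had medians of -0.19 in d3 vs Mock and -0.04 in d28 vs Mock, and HIRA had means below 6 in these groups. With the DESeq2 Wald test both calls remained, at adjusted p = 0.0491 and 0.0185. Leaving out 1 library gave 0.00786 to 0.147 for d28 vs Mock, where the call ended without Mock replicate 1 or d28 replicate 2. For d3 vs Mock it gave 0.0371 to 0.295, and the call ended without any of the 3 Mock or 3 d3 samples, with no filter and with only the 2 groups compared.

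MRPL2 is the counterpart of a core bacterial protein beside the peptidyl transferase centre. It gave 32.5, 27.6 and 39.3 in Mock, 53.4, 53.9 and 40.6 in d0, 57.1, 54.6 and 48.3 in d3, and 48.6, 38.3 and 40.4 in d28. Every d0 and d3 sample lay above every Mock sample. The rise in d3 vs Mock was 0.71 ± 0.21 (edgeR adjusted p = 0.049), and d0 vs Mock gave 0.59 ± 0.23 (edgeR adjusted p = 0.349). KLC4, whose span overlaps that of MRPL2, had 0.58 ± 0.20 in d3 vs Mock (edgeR adjusted p = 0.129), so reads of the shared DNA could bear on both, and this was not tested. The call ended in 10 of the 12 fits with 1 library left out, with adjusted p values of 0.0468 to 0.363, the exceptions being the fits without d0 replicate 2 and without d28 replicate 3. It also ended with the DESeq2 factors (adjusted p = 0.199), the DESeq2 test (adjusted p = 0.441), library sizes alone, nuclear copies removed, no filter, only the 2 groups or the replicate number as a block.

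MRPL44, a large subunit protein with a ribonuclease III fold, was higher than Mock in all other groups without a call. The 3 samples had 8.86, 11.3 and 5.13 in Mock, 25.5, 12.4 and 15.2 in d0, 19, 22.5 and 13.7 in d3, and 20.8, 15.2 and 13 in d28. No sample of the other groups overlapped Mock, and the log2 fold changes were 1.03, 1.06 and 0.98 with edgeR adjusted p values of 0.356, 0.136 and 0.19. MRPL12, the counterpart of the bacterial stalk protein, went the other way with 17.7, 6.28 and 3.42 in Mock and at most 4.76 in any sample of the other groups. Its log2 fold changes of -2.04, -1.58 and -1.95 were not called (edgeR adjusted p = 0.224, 0.167 and 0.0722). Mock replicate 1, with 12 counts, carried most of the Mock mean of 9.14 ± 7.57.

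In d28 vs Mock, MRPS14 rose and MRPL40 fell, which is 1.28% in each direction against backgrounds of 0.998% and 0.392%. At an unadjusted p below 0.05 there were 7 higher and 3 lower members, against 8.58% and 4.29%, and 2 higher and 1 lower member passed the signature rule, against 3.61% and 1.48%. In 10 members all d28 samples lay above Mock and in 1 below, against 11.6% and 6.28% of all tested genes. The median over members was 0.05 and that over all tested genes 0.10, and 47 members, or 60.3%, had values above 0, against 58.7%. The order of the medians turned with filterByExpr, at 0.21 over 65 members and 0.08 over all genes, and without Mock replicate 1, Mock replicate 2 or d28 replicate 1. With library sizes alone the member median was -0.28. MRPS14 is the counterpart of a bacterial small subunit protein, and it gave 2.95, 3.77 and 12 in Mock, 6.07, 18 and 17.8 in d0, 12.7, 12.1 and 8.85 in d3, and 12.3, 20.9 and 17.3 in d28. Mock replicates 1 and 2 were low and Mock replicate 3 was just below the lowest d28 sample. The rise was 1.46 ± 0.42 (edgeR adjusted p = 0.0439) on as few as 2 counts per sample. With 1 library left out the adjusted p ran from 0.0132 to 0.313, and the call ended without Mock replicates 1 or 2 or d28 replicates 2 or 3. It also ended with library sizes alone, no filter, the DESeq2 factors (adjusted p = 0.0754) or the DESeq2 test (adjusted p = 0.267). MRPS36, the member outside the ribosome, had means of 39.1 ± 9.99 in Mock and 29.3 ± 4.65 in d28 (SD, n = 3), and its log2 fold change of -0.48 was not called (edgeR adjusted p = 0.339).

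The d28 cells differ from d0 by the past transfection, AF4-MLL, doxycycline and blasticidin and by the further culture, and their parts cannot be told apart. In d28 vs d0, 3 members rose and 0 fell. MRPS34, MRPL45 and MRPS15 are 3.85% of the members, against backgrounds of 0.726% higher and 0.454% lower. At an unadjusted p below 0.05 there were 8 higher and 1 lower members, against 8.2% and 4.59%, and 3 higher and 0 lower members passed the signature rule, against 3.44% and 1.37%. No overlap was seen in 9 higher and 2 lower members, against 11.9% and 6.59%, so the share of separated members was no larger than in all genes. The member median was 0.15 and that of all tested genes 0.09, and 58 members, or 74.4%, had values above 0, against 56.8% of all genes. With library sizes alone the direction turned, with a median of -0.10, -0.17 over all genes and 26 members above 0.

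MRPS34 encodes a mitochondrial addition to the small subunit that is needed for its stability. Its normalized counts were 13.3, 15.1 and 13.7 in Mock, 10.9, 4.15 and 10.2 in d0, 19.8, 15.6 and 20.1 in d3, and 23.5, 23.8 and 21.6 in d28. The 4 groups did not overlap, in the order d0, Mock, d3 and d28. The rise from d0 to d28 was 1.43 ± 0.34 (edgeR adjusted p = 0.00756), the largest value of any member in this comparison, and d3 vs d0 gave 1.11 ± 0.36 (edgeR adjusted p = 0.0947). Neighbouring ranks were not separated by the test, with edgeR adjusted p values of 0.628 for d0 vs Mock, 0.68 for d3 vs Mock and 0.764 for d28 vs d3. EME2, which overlaps the gene, was itself called lower in d0 vs Mock, by 0.95 ± 0.21 (edgeR adjusted p = 0.003). It was called higher in d3 vs d0, by 0.92 ± 0.19 (edgeR adjusted p = 0.000912). In d28 vs d0 EME2 went from 35.1 to 51.8 with a value of 0.55 ± 0.20 (edgeR adjusted p = 0.158). The part of reads in shared DNA was not tested. For the MRPS34 call in d28 vs d0, leaving out 1 library gave adjusted p values of 0.0066 to 0.141. That call ended without d0 replicate 2, which had 3 counts, or without d28 replicate 1.

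MRPS15 is the counterpart of a bacterial protein that bridges the subunits. It had 13.3, 7.53 and 5.13 in Mock, 6.07, 11.1 and 5.08 in d0, 15.1, 14.7 and 16.9 in d3, and 21.4, 17.3 and 13 in d28. All d3 and d28 samples lay above all d0 samples. The rise from d0 to d28 was 1.31 ± 0.38 (edgeR adjusted p = 0.0432), and d3 vs d0 gave 1.08 ± 0.39 (edgeR adjusted p = 0.161). With 1 library left out the adjusted p ran from 0.0355 to 0.32, and the call ended without d0 replicates 1 or 3 or d28 replicates 1 or 2. It also ended with library sizes alone, no filter, the replicate number as a block or the DESeq2 factors (adjusted p = 0.0619), and DESeq2 gave it no adjusted p. MRPS27, a protein with pentatricopeptide repeats, gave 0.66 ± 0.21 (edgeR adjusted p = 0.0805), with 44.3, 52 and 50.5 in d28 above 29.2, 41.5 and 21.6 in d0. The lower side was led by MRPL52 at -0.58, MRPS35 at -0.51 and MRPL40 at -0.31, none of which was called.

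The comparison of d0 with Mock sets cells with MLL-AF4 in the pSBbi vector beside cells with the empty vector pSBTet-GP. By the paper's methods the MLL-AF4 cells were also selected with puromycin and grown for several weeks. Vector, selection and culture may thus differ along with MLL-AF4, and their parts cannot be told apart. Between these groups edgeR called 0 members in either direction, against backgrounds of 0.28% higher and 0.149% lower. At an unadjusted p below 0.05 there were 5 higher and 7 lower members, against 5.33% and 4.21%, and DESeq2 called 0 as well, though it gave no adjusted p for 42 members. All d0 samples lay above Mock in 5 members and below in 9, against 7.72% and 6.68%. The signature rule was passed by 2 higher and 2 lower members, against 2.39% and 1.96%. The median was -0.06 over members and 0.02 over all tested genes, and 35 members, or 44.9%, had values above 0, against 51.3%. The member median ran from -0.09, without d0 replicate 1, to 0.005, without Mock replicate 1, with 1 library left out, and was -0.14 with library sizes alone. The members with the smallest p were MRPL2, MRPL44 and MRPS14 on the higher side and MRPL12, MRPS27 and MRPL40 on the lower side, with adjusted p values of 0.224 to 0.463. For MRPS27 the counts were 29.2, 41.5 and 21.6 in d0 and 60.5, 37.7 and 41.1 in Mock, and the groups overlapped.

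In d28 vs d3, edgeR called 0 members, against backgrounds of 0.113% higher and 0.105% lower. At an unadjusted p below 0.05 there were 0 higher and 7 lower members, against 3.87% and 4.88%, and DESeq2 called 0 members. The signature rule was passed by 0 members in either direction, against 2.29% and 0.781%. In 3 members all d28 samples lay above d3 and in 7 below, against 6.42% and 7.97%. The median was -0.08 over members and -0.003 over all tested genes, and 30 members, or 38.5%, had values above 0, against 49.7%. With 1 library left out the member median ran from -0.13, without d28 replicate 2, to -0.03, without d28 replicate 3, and it was -0.25 with library sizes alone. The 3 members with the smallest p on the lower side were MRPL55, MRPS12 and MRPS11. MRPL55 had 31.7, 32.1 and 37.8 in d3 and 21.9, 20.9 and 18.7 in d28, with a value of -0.69 ± 0.22 (edgeR adjusted p = 0.2). MRPS12 had 45.4, 51.3 and 51.9 in d28, below all its d3 samples, with a value of -0.43 ± 0.16 (edgeR adjusted p = 0.336). On the higher side MRPL30, MRPS27 and MRPS14 gave 0.43, 0.31 and 0.54, with adjusted p values of 0.624 to 0.675.

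**Figure D3:**
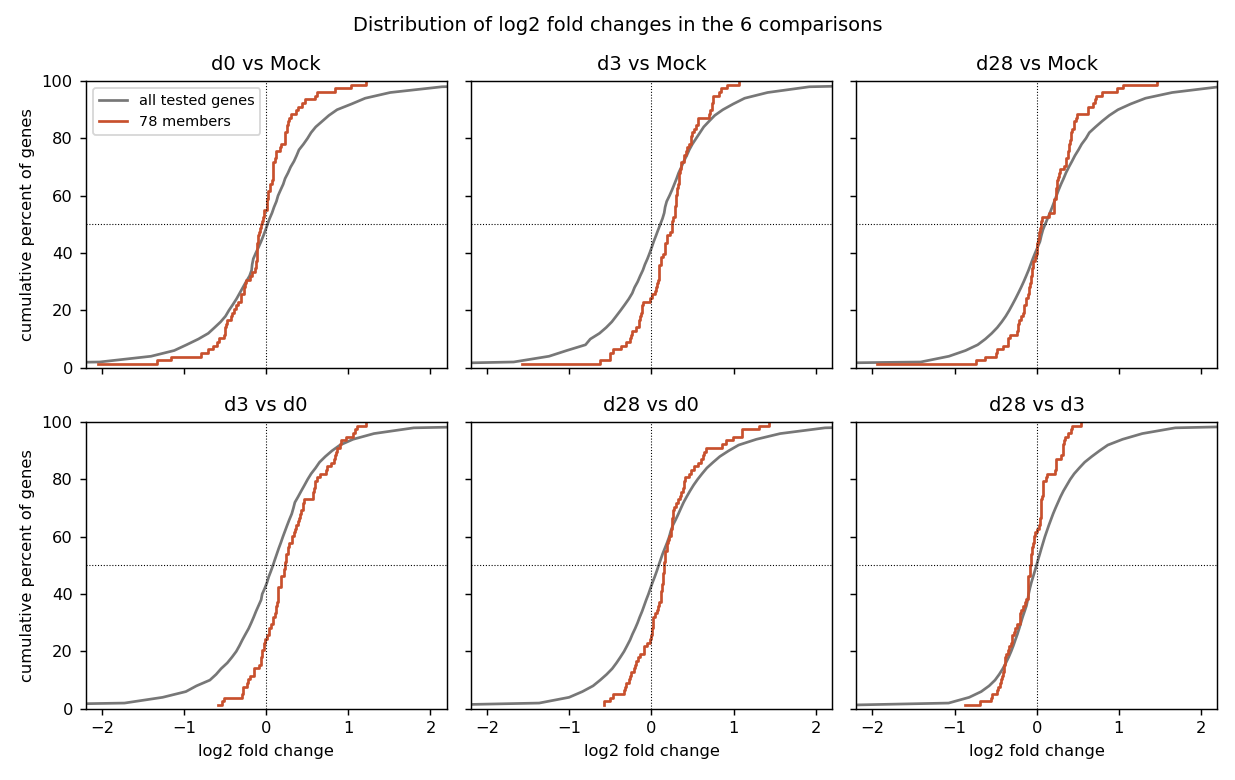
Each panel gives, for 1 comparison, the cumulative percent of genes against log2 fold change, for the 78 members as steps and all 27543 tested genes as a curve. In d3 vs Mock and d3 vs d0 the lower part of the member steps lies to the right of the curve, with 59 members above 0 in each. MRPL12 is the lowest step in the 3 panels against Mock.

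Members whose names mislead were looked up by role. MRPS18A and MRPS30 sit in the large subunit in spite of their names. MRPS18A had means of 4.56, 4.42, 8.24 and 7.73 in Mock, d0, d3 and d28, and MRPS30 had 20.9, 24.2, 23.1 and 20.8. Neither was called, and the smallest adjusted p was that of MRPS18A in d3 vs d0, at 0.486. For 32 members the table also held entries of pseudogenes, 70 in all, and how reads matching both were assigned is not given in the sources used here.

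Other genes of the same pathway gave few calls, to be read against the shares of all tested genes given with each comparison above, which were at most 1.28% called higher and 0.454% called lower. Of the 5 ribosomal subunit genes with other symbols, DAP3 rose in d3 vs d0 by 0.76 ± 0.20, from 34.7 ± 3.76 to 58.8 ± 6.06 (edgeR adjusted p = 0.0174), and 0 fell. DAP3 is a GTP-binding protein of the small subunit. Among 25 assembly factors, TFB1M, a methyltransferase for small subunit RNA, rose in d3 vs Mock by 1.02 ± 0.30 (edgeR adjusted p = 0.0486). Of 14 translation factors, MTFMT, which formylates the initiator tRNA, rose in d28 vs Mock by 1.44 ± 0.40 (edgeR adjusted p = 0.0279). Among 22 genes for charging mitochondrial tRNAs, GATC rose in d3 vs d0 by 1.02 ± 0.29 (edgeR adjusted p = 0.0437) and SARS2 rose in d28 vs d0 by 0.86 ± 0.20 (edgeR adjusted p = 0.00573). SARS2 shares its promoter region with MRPS12, which gave 0.16 ± 0.19 in the same comparison. In these 4 lists 0 genes fell in any comparison.

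Of 20 genes of the mitochondrial stress response, TRIB3, a pseudokinase induced by ATF4, fell by 0.92 ± 0.25 in d3 vs Mock (edgeR adjusted p = 0.0207) and by 0.93 ± 0.24 in d28 vs Mock (edgeR adjusted p = 0.0178). No gene of this list rose. ATF4 itself, a transcription factor of the response, gave 0.56 ± 0.18 in d3 vs d0 (edgeR adjusted p = 0.102). The list median was 0.13 in d3 vs d0, against 0.08 over all tested genes.

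Cytosolic ribosomal protein genes had medians farther from 0 in several comparisons. Of the 83 tested, 9 rose and 0 fell in d3 vs Mock, 8 rose and 0 fell in d3 vs d0, and 0 rose and 2 fell in d28 vs d3. The shares of all tested genes called higher and lower were 1.28% and 0.312%, 1.01% and 0.225%, and 0.113% and 0.105%. Their medians in these comparisons were 0.42, 0.41 and -0.32. RPL13 had means of 94 ± 14.9 in Mock, 105 ± 4.77 in d0, 162 ± 22.5 in d3 and 123 ± 15.5 in d28, with a rise in d3 vs Mock of 0.78 ± 0.14 (edgeR adjusted p = 2.38e-05). The 82 tested nuclear genes of the respiratory chain had medians of 0.14 and 0.22 in d3 vs Mock and d3 vs d0, with 2 and 1 genes called higher and 0 lower. NDUFB10, a subunit of complex I, rose in both, by 1.12 ± 0.20 (edgeR adjusted p = 1.06e-05) and 0.67 ± 0.18 (edgeR adjusted p = 0.0186). Summed over 7 housekeeping genes, normalized counts ranged from 335 to 359 in Mock, 339 to 402 in d0, 396 to 443 in d3 and 340 to 367 in d28. The d3 sums lay above those of Mock and d28 and overlapped those of d0. The 6 tested blood cell markers had a median of 0.34 in d3 vs Mock, with 4 of them above 0. In d3 vs d0 their median was 0.19, with 5 above 0. The part of a general difference between groups, at open genes or beyond them, in the member medians was not tested.

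**Figure D4:**
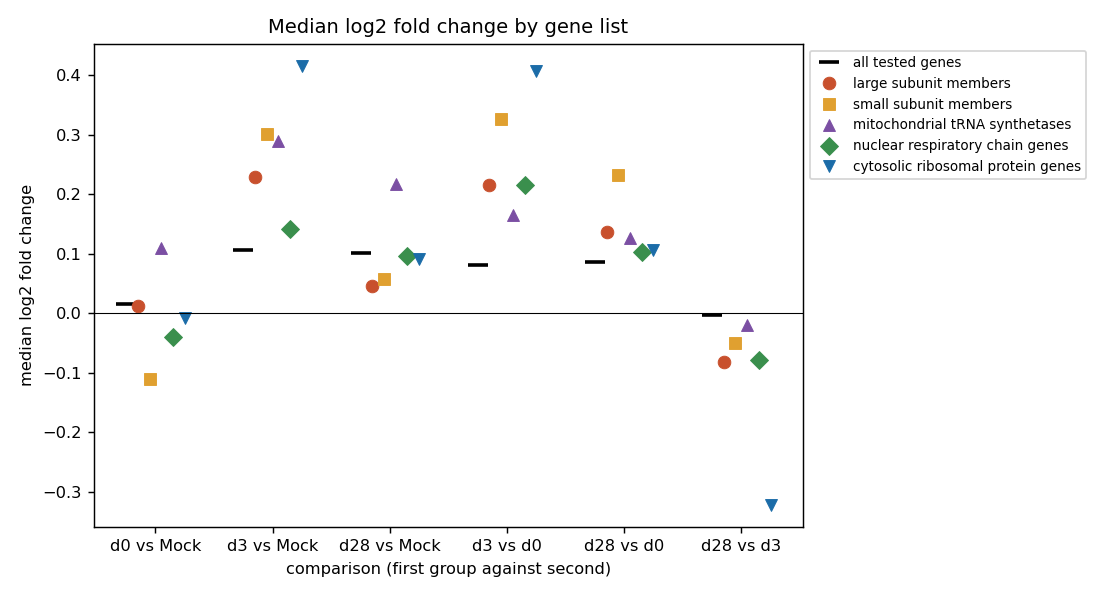
For each comparison on the horizontal axis, symbols give the median log2 fold change of large and small subunit members, 3 other gene lists and all tested genes. The cytosolic ribosomal protein genes have the highest medians in d3 vs Mock and d3 vs d0 and the lowest in d28 vs d3, and both subunits lie above all tested genes in d3 vs Mock, d3 vs d0 and d28 vs d0.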

How the data were processed

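ATAC-Seq was performed by the authors on HEK293T nuclei, although the extraction protocol in the labels mentions RNA. The deposited table holds whole-number counts of reads per gene, not normalized. The submitters' processing notes name bcl2fastq, Bowtie2, HTSeq and GRCh38, without versions. The counted interval, transposase shift, duplicate removal and blacklist are not given in the sources used here. Members and gene lists were chosen with earlier results of these data known. The 37 mitochondrially encoded genes were removed, TMM factors were computed, and genes were tested where the mean normalized count of 1 or more groups exceeded 2, with edgeR 4.0.16 (R 4.3.3, limma 3.58.1) across all 12 samples, with group as the only term. Standard errors were derived from the F statistic. DESeq2 1.42.0, other scalings and filters, and leaving out each library were alternatives. Members were matched to RefSeq, 77 by symbol and 1 by synonym. The script was tested on simulated data. Named were members called in any comparison, the 3 smallest p per direction and comparison, members past the signature rule in at least 2 comparisons, the 3 highest and 3 lowest levels, MRPS18A, MRPS30 and MRPS36, and up to 3 called genes per list, of which 1 result is not reported here. Replicates are biological per the labels, and intervals from counts cover counting error only.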

Additional observations from a re-analysis of the deposited data

How the results depend on the processing

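Under 21 alternatives, 43 results of 22 members were recomputed where they gave a value, and none changed sign. Of the 11 called results over 9 members, 0 were kept under every alternative, and MRPL40 in d28 vs Mock and MRPS34 in d28 vs d0 were kept under all those that left every library in, with no adjusted p from DESeq2 for MRPS34. The members' median minus that of all tested genes stayed between 0.07 and 0.18 in d3 vs Mock and between 0.10 and 0.20 in d3 vs d0. In d28 vs Mock it ran from -0.07 to 0.13, the highest with filterByExpr, which kept 65 members, in d28 vs d0 from -0.01 to 0.13, in d0 vs Mock from -0.12 to -0.02 and in d28 vs d3 from -0.13 to -0.02. With library sizes alone, medians were 0.09 in d3 vs Mock, -0.28 in d28 vs Mock, 0.14 in d3 vs d0, -0.10 in d28 vs d0 and -0.25 in d28 vs d3. With the DESeq2 factors in edgeR they were 0.12 in d3 vs Mock, 0.12 in d3 vs d0 and 0.09 in d28 vs d0, and with the DESeq2 test 0.12, 0.12 and 0.10. With filterByExpr the median in d28 vs Mock was 0.21. The medians near 0 in d28 vs Mock and d28 vs d0 thus turned sign with the scaling, and the causes were not tested.

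Counts of called members were 2 in d3 vs Mock, 2 in d28 vs Mock, 4 in d3 vs d0 and 3 in d28 vs d0. In d3 vs Mock they became 1 with the DESeq2 factors, library sizes alone, nuclear copies removed, the DESeq2 test or the replicate block, and 0 with no filter or only the 2 groups. In d28 vs Mock they became 1 with the DESeq2 factors, no filter or the DESeq2 test. In d3 vs d0 they became 1 with the DESeq2 factors, library sizes alone or no filter, and 0 with the DESeq2 test. In d28 vs d0 they became 1 with the DESeq2 factors, library sizes alone, no filter or the replicate block, and 0 with the DESeq2 test, which gave no adjusted p for 51 members. In d28 vs d3 library sizes alone called 3. Higher calls were 1 of 2 in d3 vs Mock and 0 of 1 with the DESeq2 factors. Past the signature rule were 2 in d0 vs Mock with filterByExpr, against 4, and 1 in d3 vs Mock with either DESeq2 choice, library sizes alone or filterByExpr, against 2. In d3 vs d0 they were 1 with either DESeq2 choice and 2 with library sizes alone or filterByExpr, against 4, and in d28 vs d3 1 with library sizes alone, against 0.

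With 1 library left out, called members ranged from 0 to 2 in d3 vs Mock, 0 to 3 in d28 vs Mock, 0 to 4 in d3 vs d0 and 0 to 3 in d28 vs d0. Signature counts ranged from 2 to 4 in d0 vs Mock, 1 to 4 in d3 vs Mock and 0 to 1 in d28 vs d3. Medians ranged from 0.13 to 0.26 in d3 vs Mock, lowest without Mock replicate 3, from 0.05 to 0.16 in d28 vs Mock, highest without Mock replicate 1, and from 0.13 to 0.21 in d28 vs d0, highest without d0 replicate 2. No pairing by replicate number was seen, as deviations of same-numbered samples correlated at -0.15 to 0.08 and 1 of 12 samples correlated best with its own number. The spread between replicates was close to counting noise, so this could not exclude a pairing. The block moved no other count of calls by over 1.5 times. Depth limits the members with few counts most.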
